A study of Mus musculus with 10 samples.

Results

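The genes described here are the 8 T-box transcription factor genes Tbx1, Tbx2, Tbx3, Tbx4, Tbx5, Tbx15, Tbx18 and Tbx20, taken by symbol from the 23195 genes of a table that compares hearts of Nos1ap null and wild-type mouse embryos. T-box factors share a DNA-binding domain, the T-box, that recognises a short motif in the regulatory regions of their target genes. In the developing heart, Tbx5 and Tbx20 act in the muscle of the chambers, and Tbx5 with Nkx2-5 and Gata4 switches on chamber genes such as Nppa. Tbx2 and Tbx3 repress the same chamber genes in the atrioventricular canal, and Tbx3 also does so in the conduction system. Tbx18 marks the epicardium and the mesenchyme that forms the head of the sinus node, and Tbx1 is known from the second heart field and the pharyngeal arches. Tbx4 is best known from the lung mesenchyme and the hind limb, and Tbx15 from the mesenchyme of the body wall and limbs.

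Hearts were dissected at embryonic day 13.5 from male embryos of strain C57BL6/J, 5 of them labelled wildtype and 5 labelled Nos1ap_null, and polyA RNA was sequenced from each. The null embryos were homozygous for the constitutive tm1d allele of Nos1ap, in which exon 4 had been deleted in all tissues with Flpe and then a CMV-driven Cre before backcrossing. Nos1ap encodes an adaptor protein of neuronal nitric oxide synthase. The study asked whether its loss alters the heart transcriptome at this age.

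The deposited table gives group means of normalized counts (read counts divided by a size factor that puts libraries on a common depth), and whole read pair counts of single libraries were solved from these means. This succeeded for 21024 of the 23195 genes (90.6%), but for none of the 1100 genes with a mean of 2000 or more. Within each genotype the libraries are numbered 1 to 5 by falling size factor, which does not follow the replicate numbering in the labels. The estimated depth on genes was between 11328233 and 14023004 read pairs per library. Nos1ap had between 126.2 and 161 normalized counts in the wild-type libraries and between 31.1 and 44.4 in the null libraries and the ranges were apart. Heart muscle genes defined the tissue in both groups, as with Nppa at 16540 and 15810 mean normalized counts in wild-type and null hearts. The 10 neuronal and glial markers summed to between 413 and 3373 normalized counts in wild-type libraries, with 3373 in library 3 and 1097 in library 4, and to between 266.5 and 354.9 in null libraries. All 8 of these markers whose mean reached 10 had a ratio below 0, with a median log2 ratio of -1.98, and none was called. Nefm had between 98.7 and 779.2 normalized counts in wild-type and between 14.1 and 23.6 in null libraries, with the ranges apart. Such a gap between groups occurred in 0.825% of the 11156 genes tested. The log2 difference of Nefm was -3.62 (limma, SE 0.56, adjusted p = 0.288), and -3.77 (SE 0.61) without wild-type library 3. Because of the high sum in wild-type library 3, some results are also given without it. In whole hearts, fewer cells of a type and less RNA per cell cannot be told apart.

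The coding sequences of the 8 genes show the feature that makes them a family. The stretch of 20 codons most alike across all 8, found by comparing the encoded residues of every window of Tbx5 with those of the other 7 genes, held 15 codons for the same residue in every gene, and 33 of its 60 bases were identical in all 8. The stretches of 7 of the genes are shown because the family resemblance, and the lack of longer shared runs, bear on how reads were assigned. They come from GENCODE transcripts on GRCm38 and are written 5′ to 3′ in the direction of transcription, with the bases shared by all 8 genes in capitals.
Tbx20: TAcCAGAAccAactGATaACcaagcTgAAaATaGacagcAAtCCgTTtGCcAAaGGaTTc
Tbx5: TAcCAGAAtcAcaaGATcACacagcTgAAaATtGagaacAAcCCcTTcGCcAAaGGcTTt
Tbx2: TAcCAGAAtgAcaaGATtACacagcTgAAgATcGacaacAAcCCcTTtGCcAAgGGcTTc
Tbx3: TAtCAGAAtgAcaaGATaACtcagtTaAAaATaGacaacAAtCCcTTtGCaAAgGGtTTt
Tbx18: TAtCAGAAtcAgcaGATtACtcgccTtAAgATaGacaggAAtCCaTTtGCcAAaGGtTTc
Tbx15: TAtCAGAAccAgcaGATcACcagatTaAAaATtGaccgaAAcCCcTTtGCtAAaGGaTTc
Tbx1: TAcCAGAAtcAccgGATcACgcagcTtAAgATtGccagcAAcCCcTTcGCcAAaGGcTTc

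In every one of the 8 genes, an intron interrupts this stretch after its base 15, which leaves 45 bases in the next exon. The intron itself ranged from 444 bases in Tbx1 to 8411 bases in Tbx5 and 10025 bases in Tbx15. For Tbx5 the stretch covers chr5:119845103-119845117 and chr5:119853529-119853573 on the plus strand, in exons 6 and 7. For Tbx20 it covers chr9:24758726-24758740 and chr9:24750344-24750388 on the minus strand, in exons 5 and 6. Among the 7 stretches shown, Tbx2 and Tbx5 were the most alike pair with 52 of 60 identical bases, and Tbx2 and Tbx15 the least alike with 40. Over longer alignments of the encoded proteins, Tbx2 and Tbx3 had 428 identical residues of 651 (65.7%), Tbx15 and Tbx18 had 350 of 566 (61.8%), and Tbx4 and Tbx5 had 300 of 505 (59.4%). The 28 pairs of genes shared runs of at most 32 identical bases between any of their transcripts, against a read length of 100 bases.

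The 8 genes lie on 5 chromosomes, and 4 of them form close pairs. Tbx2 (ENSMUSG00000000093.6, chr11:85832551-85841948) and Tbx4 (ENSMUSG00000000094.12, chr11:85886422-85916097) are on the plus strand of chromosome 11. Tbx3 (ENSMUSG00000018604.18, chr5:119670669-119684724) and Tbx5 (ENSMUSG00000018263.11, chr5:119832668-119885219) are on the plus strand of chromosome 5. Tbx18 (ENSMUSG00000032419.8, chr9:87702800-87731260) and Tbx20 (ENSMUSG00000031965.14, chr9:24718138-24774303) are far apart on the minus strand of chromosome 9. Tbx1 (ENSMUSG00000009097.9, chr16:18580979-18590671) is on the minus strand and Tbx15 (ENSMUSG00000027868.11, chr3:99240381-99354259) on the plus strand. Closeness in the genome did not go with like levels. Tbx2 had a mean of 276.3 normalized counts in wild-type hearts and its neighbour Tbx4 had 6.18.

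Per kb of merged exons, a measure that allows genes to be compared, the 8 genes fell into 3 tiers. Tbx20 was highest at 485 normalized counts per kb in wild-type and 521 in null hearts, above 94% of the 16911 protein-coding genes ranked. Tbx5 followed with 266 and 280 per kb, and Tbx18 with 203 and 218. The wild-type libraries of Tbx5 reached 287 per kb and all lay above those of Tbx18, which ranged from 185 to 218.

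Tbx2 and Tbx3, the repressors of the chamber programme, formed the middle tier. Tbx2 stood at 76.2 ± 10.1 per kb (SD, n = 5) in wild-type and 71.7 ± 5.94 in null hearts. Tbx3 stood at 44.1 ± 9.33 (SD, n = 5) and 42.5 ± 2.65 per kb, near the median of protein-coding genes, with 50% of them lower. The wild-type libraries ranged from 60.3 to 85.7 per kb for Tbx2 and from 29.4 to 54.4 for Tbx3, without overlap. Tbx4, Tbx1 and Tbx15 were at 1.82, 1.63 and 0.906 per kb in wild-type hearts, and the libraries of these 3 genes overlapped. With the longest transcript as the length, Tbx1 came before Tbx4 and the other 6 genes kept their places.

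**Figure D1:**
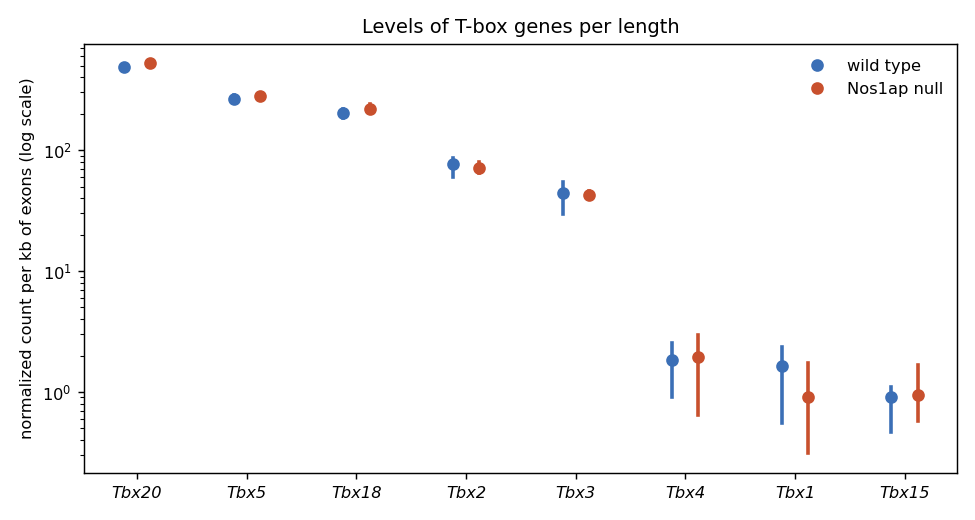
Normalized counts per kb of merged exons (log scale) of the 8 T-box genes in wild-type (blue) and Nos1ap null (red) hearts, in the order of the wild-type level. Points are group means and lines span the lowest to highest of 5 libraries where counts were solved; in wild-type hearts Tbx20 (485), Tbx5 (266) and Tbx18 (203) stand above Tbx2 (76.2) and Tbx3 (44.1), and Tbx4, Tbx1 and Tbx15 are under 2.

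The comparison of null with wild-type hearts called none of the T-box genes. The 3 members that could enter the test over all genes, Tbx2, Tbx3 and Tbx18, had adjusted p = 0.998 each (limma, Benjamini-Hochberg over 11156 protein-coding genes whose mean reached 10 normalized counts). Over all genes tested, 3 were called at an adjusted p under 0.05 (0.0269%), and Nos1ap was among them with a log2 difference of -1.83 (SE 0.12, adjusted p = 3.44e-08). At an unadjusted p under 0.05, limma gave 0 of the 3 members and 408 genes in all (3.66%). In none of the 6 members with solved counts were the wild-type and null libraries apart, while this was so for 92 of the genes tested (0.825%). Tbx1, Tbx4 and Tbx15 lay under the limit of 10, and Tbx5 and Tbx20 had no solved counts in the null or in either group.

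**Figure D2:**
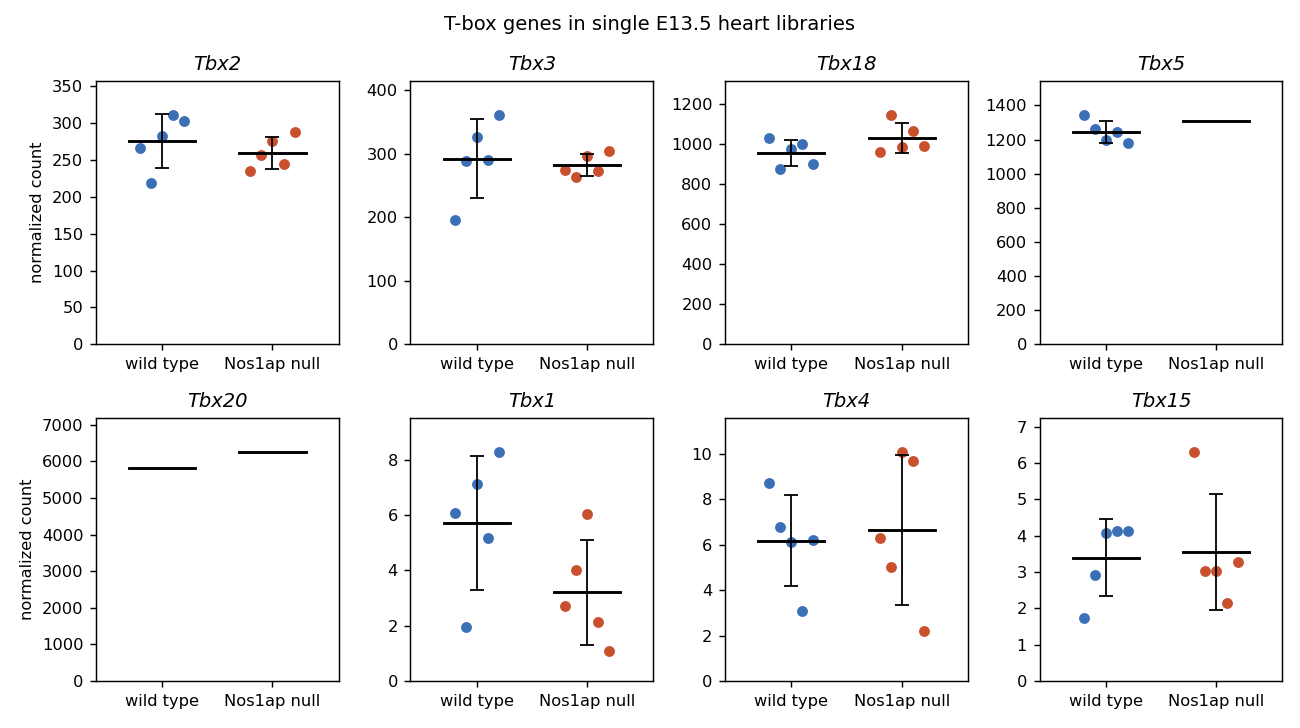
Normalized counts (vertical axes, each from 0) of the 8 T-box genes in wild-type (blue) and Nos1ap null (red) hearts, 1 point per library from library 1 at the left to 5, with group means as wide bars and the SD of 5 libraries as error bars. Tbx5 has solved counts in wild-type libraries only and Tbx20 in neither group, and in the 6 genes with points in both groups the libraries overlap.

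Tbx20 and Tbx5, the activators of chamber muscle, were the highest of the family. The mean of Tbx20 was 5824 normalized counts in wild-type and 6255 in null hearts, a log2 ratio of 0.10 between the group means, with no test because single libraries could not be solved. Of 526 protein-coding genes with a mean between 0.5 and 2 times that of Tbx20, 11 (2.09%) had a ratio at least as far from 0. Tbx5 had means of 1245 and 1308, a log2 ratio of 0.07, and 454 of 3410 genes of like mean (13.3%) were at least as far from 0. In wild-type libraries 1 to 5, the best set of counts gave Tbx5 1342, 1263, 1195, 1246 and 1178 normalized counts, with 95.2% of the weight of all possible sets. The mean of the null group, 1308, was below wild-type library 1 and above wild-type libraries 2 to 5. Tbx5 had no test, because a group mean set against single libraries does not measure a difference.

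Tbx18, the gene of epicardium and sinus node mesenchyme, was the third in level. Its normalized counts were 1028, 875, 976, 999 and 901 in wild-type libraries 1 to 5. In null libraries 1 to 5 they were 959, 1143, 985, 1067 and 988. Null libraries 2 and 4 were above every wild-type library, and the other 3 null libraries lay within the wild-type range. The means were 955.9 ± 65.3 and 1029 ± 75.8 (SD, n = 5), with a log2 ratio of 0.11 and p = 0.151 by the exact two-sided permutation test, whose smallest possible p is 0.00794. The limma difference was 0.11 on the log2 scale (SE 0.05, 95% interval -0.01 to 0.22), so that a rise by more than 0.22 lay outside the interval. The null counts carried 96.4% of the weight of all sets that give the group mean. They also gave the printed mean of all 10 libraries. The next set to do so had a spread between libraries of 26.7% in place of 7.37%, and with it the exact permutation test gave p = 0.651.

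Tbx2, a repressor of chamber genes in the atrioventricular canal, had 266.2, 218.8, 283, 310.6 and 303.1 normalized counts in wild-type libraries 1 to 5. Its null libraries 1 to 5 had 234.9, 257.4, 275.2, 244.8 and 287.5. The null values fell within the wild-type range, whose lowest value was library 2. The means were 276.3 ± 36.6 and 260 ± 21.5 (SD, n = 5), and the exact permutation test gave p = 0.413. The limma difference was -0.08 (SE 0.09, 95% interval -0.27 to 0.10).

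Tbx3, which keeps chamber genes low in the nodes and the atrioventricular bundle, had 194.9, 288.5, 326.7, 290 and 360 normalized counts in wild-type libraries 1 to 5. The null libraries had 274.5, 262.4, 296.4, 271.7 and 303.9. Wild-type library 1 was below every null library, wild-type libraries 3 and 5 were above them all, and the means were 292 ± 61.8 and 281.8 ± 17.5 (SD, n = 5). The exact permutation test gave p = 0.73, and the limma difference was -0.02 (SE 0.14, 95% interval -0.33 to 0.28). Without wild-type library 3 the limma difference turned to 0.02 (SE 0.15). The spread of Tbx3 between wild-type libraries was 21.2% of its mean, and 35 of 2500 protein-coding genes with a mean of 200 to 400 (1.4%) had a larger one. In null hearts the spread was 6.22%, and 1488 of the 2500 genes (59.5%) exceeded it. Without wild-type library 1 the log2 ratio of Tbx3 was -0.17, the lowest of the 10 values with a library left out, and the exact permutation test gave p = 0.0714.

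Bmp2, a signal that sets Tbx2 and Tbx3 in the atrioventricular canal, was compared with Tbx3 library by library. Bmp2 had 207, 323.3, 324.7, 278.6 and 354.8 normalized counts in wild-type libraries 1 to 5. Library 1 was the lowest and library 5 the highest for both genes. Tbx2 did not share this order, with 266.2 in library 1 and its lowest value, 218.8, in library 2, where Bmp2 had 323.3. Whether Bmp2 varied together with Tbx2 or Tbx3 was not tested. In the null libraries Bmp2 ranged from 263.4 to 311.4. The nodal genes Hcn4 and Shox2 had no such low value in wild-type library 1, with 381.9 for Hcn4, within the wild-type range, and 333.2 for Shox2, the highest of the 5.

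**Figure D3:**
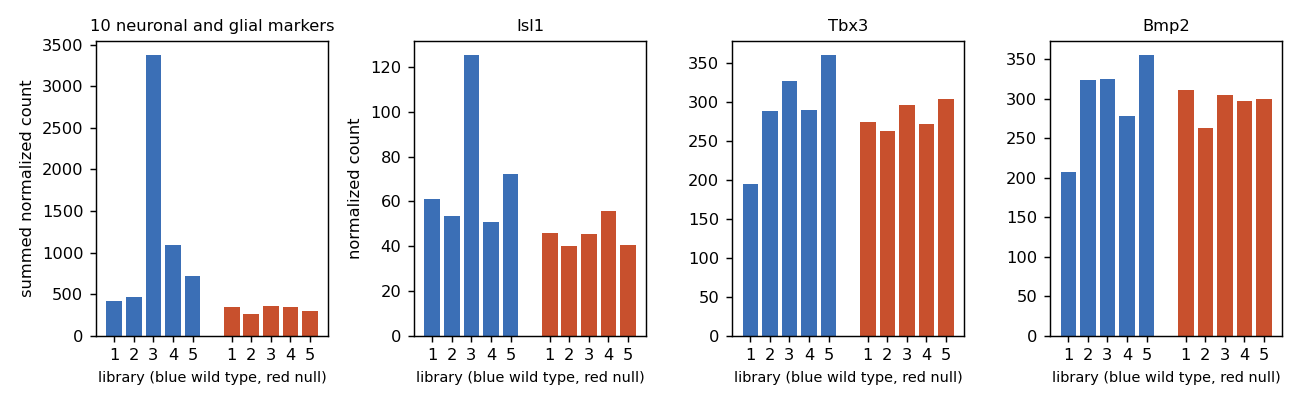
Normalized counts per library, wild-type libraries 1 to 5 in blue and null libraries 1 to 5 in red, for the sum of 10 neuronal and glial markers, Isl1, Tbx3 and Bmp2. Wild-type library 3 is highest for the neuronal sum (3373) and for Isl1 (125.2), while Tbx3 and Bmp2 are lowest in wild-type library 1 (194.9 and 207).

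Tbx1, Tbx4 and Tbx15 were at a few reads per library. Tbx1 had 7, 2, 7, 5 and 8 read pairs in wild-type libraries 1 to 5. In the null libraries it had 3, 4, 6, 2 and 1. All but wild-type library 2 of the first group were above null libraries 1, 2, 4 and 5. The sums were 29 and 16, the means 5.72 ± 2.41 and 3.2 ± 1.91 normalized counts (SD, n = 5), and the log2 ratio of the means was -0.84. The exact permutation test gave p = 0.111, and without wild-type library 2 the log2 ratio was -1.06 with p = 0.0317. Of 1390 genes of like mean, 18.1% had a ratio at least as far from 0.

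Tbx4 summed to 32 read pairs in wild-type and 33 in null libraries, with between 3 and 10 and between 2 and 10 per library. The exact permutation test gave p = 0.817. Tbx15 summed to 17 and 18 read pairs, with 2 to 4 per wild-type and 2 to 7 per null library (p = 0.849, exact permutation test). When the limit of the limma fit was lowered to a mean of 1, the 95% interval of the log2 difference was -1.57 to 0.18 for Tbx1, -0.77 to 0.80 for Tbx4 and -0.76 to 0.82 for Tbx15. A fall by 0.5 on the log2 scale was therefore within the interval for each of these 3 genes, and a rise by 0.5 was within it for Tbx4 and Tbx15. The 9 lung and airway mesenchyme markers summed to between 575 and 817.4 normalized counts in wild-type and between 571.8 and 632.7 in null libraries. The 817.4 was wild-type library 3. Tcf21 and Osr1 weighed most in this sum. Tcf21, also in the epicardial list, had means of 345.1 and 356.2, and Osr1 had 234.6 and 168.4. The limma difference of Osr1 was -0.485 (SE 0.152, unadjusted p = 0.00819, adjusted p = 0.998). It was -0.433 (SE 0.162, unadjusted p = 0.0225 by limma) when wild-type library 3 was left out. Foxf1 had means of 15.1 and 3.86 (p = 0.0317, exact permutation test). Its highest wild-type library reached 39.7 normalized counts, and the SD of the wild-type libraries was 14.25. The lowest wild-type value, 5.22, was below the highest null value, 6.44. Foxf1 was not tested without wild-type library 3. Of the 5 lung and airway genes whose mean reached 10, 3 had a ratio above 0 and 2 below. For the 10 markers of body wall and limb mesenchyme the sums were 1090 to 1413 in wild-type and 1024 to 1268 in null libraries. Wild-type library 3 had the 1413 and wild-type library 5 had 1394. The part of these markers in the levels of Tbx4 and Tbx15 was not tested.

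Values for all protein-coding genes place the members among genes of like level. Tbx20, Tbx18 and Tbx5 had ratios above 0, Tbx2 and Tbx3 had ratios below 0, and these 5 log2 ratios lay between -0.09 and 0.11. For Tbx18, 195 of 4060 genes of like mean (4.8%) had a ratio at least as far from 0. That share was 22.7% for Tbx2 and 45.1% for Tbx3. The median of the absolute log2 ratio was 0.03 over the 2622 protein-coding genes whose mean reached 1000 and 0.05 over the 13299 whose mean reached 10.

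**Figure D4:**
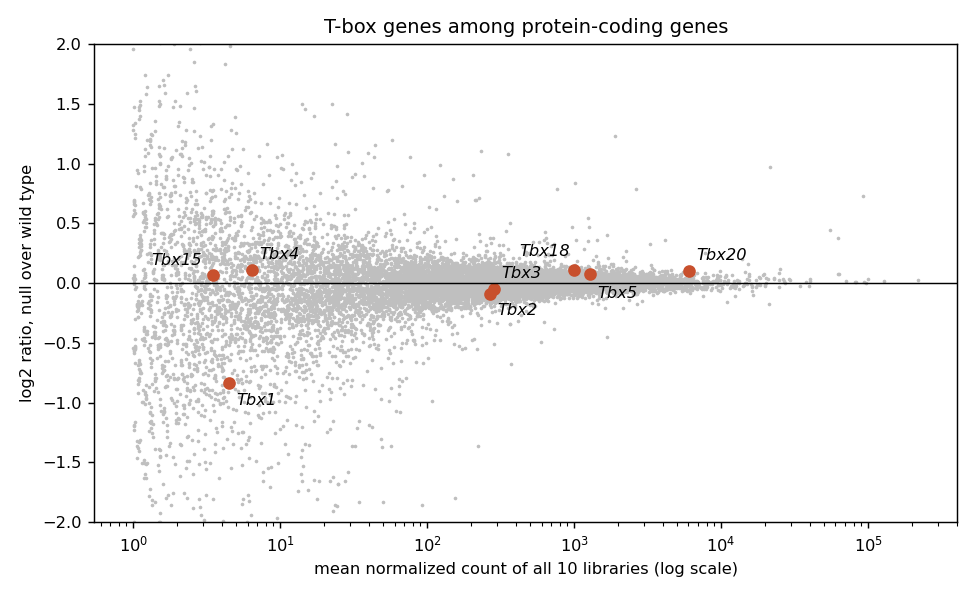
Log2 ratio of the mean normalized counts, null over wild type, against the mean of all 10 libraries (log scale) for 15504 protein-coding genes whose mean reached 1 (grey; 148 of them lie beyond the axis), with the 8 T-box genes in red. Tbx2, Tbx3, Tbx5, Tbx18 and Tbx20 lie within -0.09 to 0.11, and Tbx1 at -0.84 lies among genes of few counts, where the grey points spread widely.

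Levels of Tbx2, Tbx3 and Tbx18 were compared across the 10 libraries. Tbx2 and Tbx3 had Pearson's r = 0.35 (permutation p = 0.334, adjusted 0.501 over 3 pairs) and Spearman's rho = 0.62 (permutation p = 0.0601, adjusted 0.11). Without the 2 libraries farthest from the median of Tbx2, r was 0.54, and it was 0.29 within wild-type and 0.78 within null libraries. Tbx3 and Tbx18 had r = -0.49 (permutation p = 0.151, adjusted 0.453) and rho = -0.60 (permutation p = 0.0736, adjusted 0.11). Their r was -0.49 without the 2 farthest libraries, -0.60 within wild-type and -0.69 within null libraries. Tbx2 and Tbx18 had r = 0.06 (permutation p = 0.86, adjusted 0.86), rho = 0.07 (permutation p = 0.865, adjusted 0.865) and r = -0.75 without the 2 farthest libraries, with 0.47 within wild-type and -0.12 within null libraries. No pair passed the correction.

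Among 9240 protein-coding genes whose mean reached 50, those most like each member across the 10 libraries were then read off, as a description with no test, since the largest of so many values is high in any case. For Tbx3 they were Ttbk2, which encodes a kinase needed for cilia (r = 0.94, rho = 0.93), and Pcsk5, a proprotein convertase (r = 0.94, rho = 0.76). For Tbx18 they were Vwf, the endothelial clotting protein (r = 0.96, rho = 0.88), and Gm21685 (r = 0.93, rho = 0.92). For Tbx2 they were Vps13d (r = 0.88, rho = 0.89) and the chaperone gene Chordc1 (r = 0.87, rho = 0.84). Without the 2 libraries farthest from the member's median, r of these 6 genes was 0.64 or more, with the lowest value for Pcsk5.

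The other T-box genes of the mouse were low, with the exception of Mga. Mga, which joins a T-box with a domain that pairs with Max, had 778.7 mean normalized counts in wild-type and 805.1 in null hearts (limma log2 difference 0.05, SE 0.05, adjusted p = 0.998). Tbx6, a gene of presomitic mesoderm, had 13.9 and 13.3 (adjusted p = 0.998, limma). Tbr1 had 13 read pairs summed over each group, and T, the Brachyury gene, had 18 and 15. Eomes had 1 read pair in the wild-type libraries and 4 in the null libraries, and Tbx21 had 1 in each group. Tbx19 had 4 read pairs in wild-type libraries and 0 in the 5 null libraries, which allows up to 3. Tbx10 and Tbx22 were not analysed here.

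Several T-box genes have a transcript of the opposite strand beside them. Tbx3os1, antisense to the start of Tbx3, had means of 12.5 and 15.3 normalized counts. It had 6.96 in wild-type library 1, where Tbx3 was lowest, and between 11.6 and 17.3 in the other wild-type libraries. D030062O11Rik, which overlaps Tbx18 on the opposite strand, had 8.93 and 10.6. Tbx3os2 had 0.41 and 0.65, Gm43050 beside Tbx5 had 25.9 and 23.7, and 2610027K06Rik beside Tbx2 had 8.06 and 7.76. The kit kept strand, and per the study's methods the read counting took it into account. None of the protein-coding neighbours that were tested was called (limma, adjusted p = 0.998 each), with Bcas3 by Tbx2 at a log2 difference of 0.14 (SE 0.07), Rbm19 by Tbx5 at -0.08 (SE 0.05) and Med13l by Tbx3 at 0.04 (SE 0.04).

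The partners list holds factors such as Nkx2-5 and Gata4 that bind DNA together with Tbx5, and chromatin cofactors. Of its 20 genes, 9 were tested and none rose or fell (limma, adjusted p under 0.05), and the median log2 ratio over the 20 was 0.001, against -0.0009 over all protein-coding genes with that minimum of 10. Nkx2-5 had means of 1688 and 1648 and Gata4 of 3923 and 4018. The highest ratio was that of Mycn at 0.06, and the lowest was that of Isl1 at -0.67.

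Isl1, a factor of the second heart field, the sinus node and autonomic neurons, had 60.9, 53.2, 125.2, 50.6 and 72.4 normalized counts in wild-type libraries 1 to 5. In null libraries it had 45.9, 40.2, 45.4, 55.8 and 40.3. Wild-type library 3 was the highest, as it was for the neuronal and glial markers, and the other libraries overlapped between groups. Wild-type library 3 also had the highest sums of skeletal muscle (201.5), lung epithelium (1120), lung and airway mesenchyme (817.4) and body wall and limb mesenchyme markers (1413). It did not have the highest sum of fetal liver or cartilage markers. The limma difference was -0.59 (SE 0.20, unadjusted p = 0.0115, adjusted p = 0.998). Without wild-type library 3 it was -0.37 (SE 0.15, unadjusted p = 0.0233 by limma). The part of the neuronal or any other of these marker groups in the difference of Isl1 was not tested.

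The chamber targets list holds genes of chamber muscle that Tbx5 activates or that Tbx2 and Tbx3 hold down. Of 18 genes, 5 were tested and none was called, and the median log2 ratio was 0.04, with 11 ratios above 0 and 7 below. Nppa, the atrial natriuretic peptide gene, had means of 16540 and 15810, a log2 ratio of -0.07. Gja5, the gene of the fast conduction connexin, had 2486 and 2576. The extremes were Ryr2, the calcium release channel gene, at 0.15 and Scn10a at -0.18. Most of these genes were too abundant for their single libraries to be solved, and their ratios have no error.

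The promoter of Nppa is shown because it carries the motif of T-box factors, and Nppa is the target that both activators and repressors of the family are known to address. The motif searched was AGGTGTGA or, on the other strand, TCACACCT, in 250 bases before to 50 bases after the start of each gene (RefSeq, GRCm38.p6). The motif was present in 399 of 27025 genes (1.48%), in Nppa among the 24 chamber and nodal genes with a promoter in the table, and in 0 of the 4 T-box genes with one (Tbx1, Tbx4, Tbx18 and Tbx20). In Nppa, chr4:148000472-148000771 on the plus strand, it opens the window at chr4:148000472-148000479, in capitals.
Nppa: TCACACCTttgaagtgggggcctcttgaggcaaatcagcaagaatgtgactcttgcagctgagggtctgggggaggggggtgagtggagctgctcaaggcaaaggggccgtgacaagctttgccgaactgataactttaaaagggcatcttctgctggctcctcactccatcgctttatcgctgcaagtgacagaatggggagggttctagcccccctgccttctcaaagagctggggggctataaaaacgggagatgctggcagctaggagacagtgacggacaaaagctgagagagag
A match describes the letters of this window and says nothing on binding in these hearts.

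Genes of the nodes and conduction system, where Tbx3 and Tbx18 act, included 4 of 16 tested with an unadjusted p under 0.05 (limma), against 3.66% of all genes tested, and none was called. Hcn4, the pacemaker channel gene, had 381.9, 416.2, 359.3, 443.8 and 403.5 normalized counts in wild-type libraries and 427.5, 445.5, 456.7, 434.9 and 454.2 in null libraries. Only wild-type library 4 reached the null values, and the limma difference was 0.15 (SE 0.06, unadjusted p = 0.0183, adjusted p = 0.998). Without wild-type library 3 the limma difference of Hcn4 was 0.11 and the unadjusted p was 0.0663. Rgs6, a brake on muscarinic signalling in the node, had a difference of 0.21 (SE 0.07, unadjusted p = 0.00709 by limma), and Irx3, a factor of the ventricular conduction system, of -0.13 (SE 0.06, unadjusted p = 0.0343). The fourth gene was Isl1. Shox2, which upholds the sinus node programme, varied widely, between 135.4 and 333.2 among wild-type libraries and between 110.9 and 395.2 among null libraries, and its exact permutation test gave p = 0.579. The highest ratio of the 18 genes was 0.23 for Vsnl1, and the median was 0.02.

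The BMP and Notch inputs, which set Tbx2 and Tbx3 in the atrioventricular canal and cushions, had a median log2 ratio of 0.00 over 18 genes. None of the 11 tested was called or had an unadjusted p under 0.05 (limma). Bmp2 had a limma difference of 0.01 (SE 0.12). Bmp5 was the highest at 0.09 and Msx1, a BMP target, the lowest at -0.22. The second heart field list, to which Tbx1 belongs, had a median of 0.00 over 15 genes, with none of 13 called. Fgf10, a target of Tbx1, was the highest at 0.22.

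The epicardial list, the tissue of Tbx18, had a median log2 ratio of 0.07 over 12 genes, with 8 above 0 and 4 below. None of 11 tested was called, and 3 had an unadjusted p under 0.05 (limma), against 3.66% of all genes tested. Wt1, a factor of the epicardium, had 524.6, 473.4, 589.4, 483 and 467.6 normalized counts in wild-type libraries. In null libraries it had 566.1, 575.2, 564.6, 634.7 and 531.5, and wild-type library 3 lay among them. The limma difference of Wt1 was 0.18 (SE 0.06, unadjusted p = 0.0111, adjusted p = 0.998), and without wild-type library 3 it was 0.24 (SE 0.06, unadjusted p = 0.000566). Upk3b, a mesothelial gene, differed by 0.08 (SE 0.03, unadjusted p = 0.00775 by limma), and Scx, a tendon and valve factor, by -0.34 (SE 0.16, unadjusted p = 0.0422). Without wild-type library 3 the limma difference of Upk3b was 0.07 (SE 0.03, unadjusted p = 0.0253). That of Scx was then -0.46 (SE 0.14, unadjusted p = 0.00342). Tcf21, a factor of epicardium and cardiac fibroblasts, had means of 345.1 and 356.2. The extremes were Aldh1a1 at 0.36 and Scx at -0.34. The levels of the 11 genes with solved counts summed to between 4310 and 4840 in wild-type and between 4625 and 4998 in null libraries.

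**Figure D5:**
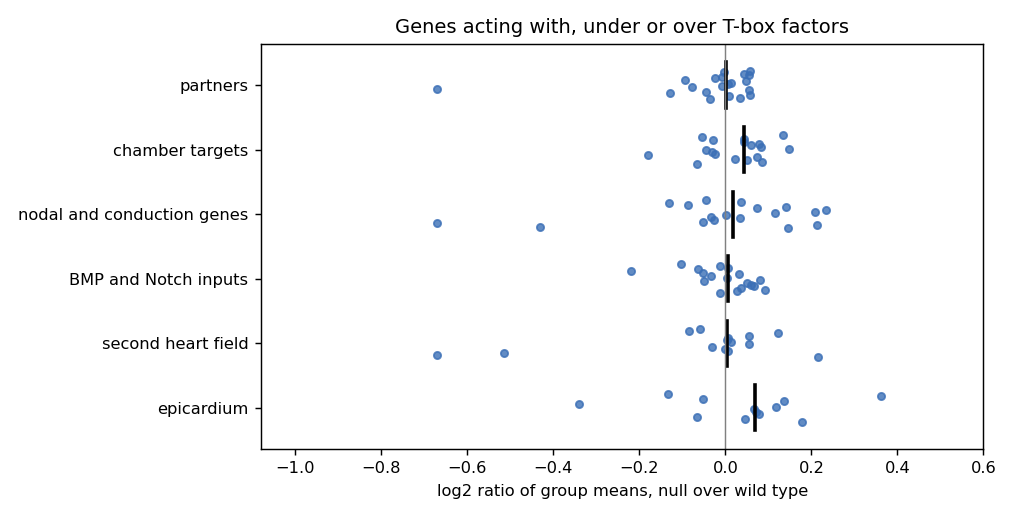
Log2 ratios of the group means (null over wild type) for the genes of 6 lists whose mean reached 10, 1 point per gene, with the median of each list as a black bar. The medians lie between 0.00 and 0.07, and the far point on the left in 3 of the lists is Isl1 (-0.67). Ratios above -1 are drawn.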

How the data were processed

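PolyA RNA-seq libraries of 5 wild-type and 5 Nos1ap null hearts were grouped by their genotype labels. The authors trimmed reads (Trimmomatic 0.36), aligned them with STAR within RSEM 1.2.31 to GENCODE M10 on GRCm38, and compared read counts with DESeq 1.24.0, per the labels and the study's methods. The signal values that the authors deposited are normalized counts, read counts divided by size factors and averaged per genotype. The deposited table also holds the authors' fold changes, their logarithms and p-values, which were not used. Whole counts of single libraries were solved from the means, printed to 15 digits, in a reduced lattice. A set was taken if it was the only one or held at least 95% of the weight under the spread of genes with a mean of 150 to 350. This limit was chosen after the weight of Tbx18 was seen, and sets so taken lean towards equal expression. The main test was limma 3.58.1 (trend, robust; R 4.3.3) over protein-coding genes with solved counts whose mean reached 10, on log2 of the normalized count plus 1, adjusted by Benjamini-Hochberg. Each member's difference in mean normalized counts was set against all arrangements of the libraries (exact permutation test, two-sided). Lengths and positions are from GENCODE M21 (GRCm38; 23051 of 23195 identifiers matched without their version). Protein identity is over local alignments (Biopython 1.88). The search and the fit were tested on simulated data. Alternatives changed the pseudocount, filter, test, genes, threshold, scaling, counts and libraries. Genes named are the 8 members, other T-box genes, their neighbours, the extremes of each list and genes under 0.05 in it, the 2 genes most like a member, and key partners and targets. Some named genes and 1 sequence are not reported here. Members, lists and rules were chosen with earlier results of these data known. Ratios of group means and limma differences are both null over wild type on the log2 scale.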

Additional observations from a re-analysis of the deposited data

Results flagged for a closer look

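Among the 6 T-box genes with solved counts, 1 of the 12 sets of 5 libraries had a value far from the rest. Tbx15 had 6.3 normalized counts in null library 1, and the gap to the next library was 0.73 of the whole range, above the limit of 0.71 for 5 samples. The value is 7 read pairs, against 2 or 3 in the other null libraries. Chance alone passes this limit in about 1 of 20 groups of normally distributed values, and 12 groups were looked at. The rate for counts this low was not tested.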

How the results depend on the processing

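No paired analysis was possible because the deposited values are group means, and the libraries solved from them carry no replicate numbers. The count of called genes was 3 and that of called T-box genes was 0 in the reported analysis and under a pseudocount of 0.5, means of at least 50 or 1, voom, genes of every type, FDR 0.01, scaling to library medians and, chosen after seeing the data, counts with a weight of at least 99%. The 99% setting left out Tbx18, whose null counts had a weight of 96.4%, so its 0 covers Tbx2 and Tbx3 only. Leaving out 1 library at a time gave between 2 and 4 called genes and 0 called T-box genes. Across all these settings the smallest unadjusted p (limma) was 0.0254 for Tbx18, 0.0429 for Tbx3 and 0.0439 for Tbx2. The smallest adjusted p (limma) was 0.87, 0.985 and 0.914 in the same order. Of the list genes 0 were called, and leaving out 1 library gave between 0 and 1, the 1 being Nefm without wild-type library 4. With a library left out, log2 ratios ranged from -0.17 (without wild-type library 1) to 0.035 (without wild-type library 5) for Tbx3, from -0.093 (null library 3 left out) to 0.33 (null library 5 left out) for Tbx4, from -0.246 (null library 1 left out) to 0.20 (null library 4 left out) for Tbx15, from -1.20 (null library 3 left out) to -0.62 (null library 5 left out) for Tbx1, from -0.16 (wild-type library 2 left out, exact permutation p = 0.0794) to -0.04 (wild-type library 4 left out) for Tbx2, and from 0.065 (null library 2 left out) to 0.13 (wild-type library 1 left out) for Tbx18. The order of levels kept 6 of 8 places with the longest transcript. The cause of these shifts was not tested. Genes above a mean of 2000, Tbx20 among them, have no replicate error here, and 10 or fewer read pairs per library limit Tbx1, Tbx4 and Tbx15.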
